A study of Mus musculus with 12 samples.

Results

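The interferon-induced and antigen presentation genes are a list of 35 mouse genes, picked by symbol, with earlier results of these data known, by a rule that uses no measured value. Here they were read in RNA from 12 hearts on Affymetrix mouse expression arrays. Of the 35, 33 had a probe set (a group of short DNA probes for 1 transcript) annotated to that gene alone, out of 18193 such genes, and each was read from its brightest probe set. A filter on low values kept 31 of the 33, of 10916 genes kept in all; Mx1 and Mx2 fell below it. The only probe set matched to Isg15 is annotated to 2 genes, and Ifi44 had none of its own, so no value is given for either.

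The study asked how hearts of mice without the apelin gene (Apln, which encodes a peptide that acts on heart and vessels) differ from wild-type hearts at rest and under pressure overload. There were 3 arrays, labelled as biological replicates, in each of 4 groups: knockout banded, knockout sham, wild-type banded and wild-type sham. Banded mice had a constricted aorta, against which the left ventricle must pump, and sham mice were the operated controls. The strain, age and sex of the mice, the part of the heart taken, the time since surgery and whether the knockout line is conditional are not in the labels.

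Interferons are secreted proteins that cells release on sensing virus or foreign nucleic acid. Type I interferons bind the receptor of Ifnar1 and Ifnar2, and a complex that holds STAT2 and IRF9 then enters the nucleus and binds interferon-stimulated response elements (ISRE). Interferon gamma, made by T and natural killer cells, binds the receptor of Ifngr1 and Ifngr2, and its signal reaches gamma-activated sites (GAS) in the DNA. The first route is best known for the antiviral genes (Ifit, Oas, Mx, Rsad2), and the second for the immunity-related and guanylate-binding GTPases and for the machinery that loads peptides on MHC molecules. In the heart these genes are expressed by endothelial cells, fibroblasts, macrophages and, for many of them, cardiomyocytes.

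Both kinds of element were searched in the 250 bases before the transcript start in RefSeq (GRCm38.p6), on both strands, as GAAANNGAAA for ISRE and TTCNNNGAA for GAS, which reads the same on either strand. Of the 35 genes, 28 had an entry, with 33 windows. The ISRE letters were in 12 of the 33 windows (36.4%), against 2.98% of all 32851 windows. The GAS letters were in 7 (21.2%), against 7.02%, and 3 windows, those of Igtp, Oas1a and Bst2, held both, against 0.332%. These matches describe the letters and do not show binding. The windows of 5 genes described below are printed, with the matches in capitals. Igtp and Irgm1 are the GTPase genes with the lowest p-values that have an entry, B2m is the abundant light chain of MHC class I, Rsad2 is an antiviral gene, and Irf1 is a transcription factor with a GAS match and no ISRE match.
Igtp (chr11:58199306-58199555, plus strand): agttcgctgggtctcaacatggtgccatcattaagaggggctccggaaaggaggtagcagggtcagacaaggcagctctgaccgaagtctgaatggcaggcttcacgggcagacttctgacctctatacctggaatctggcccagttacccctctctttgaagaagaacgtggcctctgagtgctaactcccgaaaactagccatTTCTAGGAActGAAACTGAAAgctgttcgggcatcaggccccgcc
Irgm1 (chr11:48871421-48871670, minus strand): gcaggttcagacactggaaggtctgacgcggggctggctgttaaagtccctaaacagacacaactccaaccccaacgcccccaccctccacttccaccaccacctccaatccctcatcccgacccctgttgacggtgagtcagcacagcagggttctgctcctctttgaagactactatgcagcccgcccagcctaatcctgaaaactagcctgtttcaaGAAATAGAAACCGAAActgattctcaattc
B2m (chr2:122147437-122147686, plus strand): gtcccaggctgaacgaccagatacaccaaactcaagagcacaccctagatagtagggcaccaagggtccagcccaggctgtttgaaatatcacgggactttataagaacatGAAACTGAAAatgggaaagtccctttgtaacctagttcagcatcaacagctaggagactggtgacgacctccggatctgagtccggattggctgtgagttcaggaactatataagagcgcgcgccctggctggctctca
Rsad2 (chr12:26456453-26456702, minus strand): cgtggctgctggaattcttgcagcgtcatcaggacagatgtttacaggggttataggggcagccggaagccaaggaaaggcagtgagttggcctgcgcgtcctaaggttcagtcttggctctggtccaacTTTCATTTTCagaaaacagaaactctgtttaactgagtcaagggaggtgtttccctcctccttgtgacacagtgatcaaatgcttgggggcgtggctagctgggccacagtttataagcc
Irf1 (chr11:53769764-53770013, plus strand): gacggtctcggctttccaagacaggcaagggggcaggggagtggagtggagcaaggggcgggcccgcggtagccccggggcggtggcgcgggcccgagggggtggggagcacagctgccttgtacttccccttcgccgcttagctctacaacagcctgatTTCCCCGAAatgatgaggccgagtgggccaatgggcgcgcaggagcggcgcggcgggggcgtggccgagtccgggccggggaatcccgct
In Igtp the ISRE match began 34 bases and the GAS match 45 bases before the start. In Irgm1 a pair of overlapping ISRE matches began at 30 and 24 bases, in B2m the match began at 139 bases, in Rsad2 at 120 bases on the other strand, and in Irf1 the GAS match began at 90 bases.

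The deleted gene checks the labels. Apln was 63.7 to 160 in 5 of the 6 knockout arrays and 205 to 333 in the 6 wild-type arrays, but 271 in knockout banded 1, which goes against its label. The library labelled knockout banded 1 also stood apart in lung airway genes, with Scgb1a1 at 1090 against 1.93 to 49.8 elsewhere. The 6 cardiomyocyte markers summed to 48600 to 95700 in every array, and Xist was 1260 in wild-type banded 3 alone, against 43.3 to 89.2. Results that rest on knockout banded 1 are given with and without it. Precision here is set by the number of arrays, since there is no count behind an intensity.

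Banded knockout hearts had less signal than banded wild-type hearts for most of these genes, among them every GTPase gene and all but 1 of the antigen presentation genes. The members' median log2 difference, knockout against wild type in banded hearts, was -0.21, against 0.003 over all tested genes, with 7 members above 0 and 24 below, where 49.4% of genes were below. In 15 of the 31 (48.4%) all 3 knockout banded arrays were below all 3 wild-type banded arrays, a separation that 8.95% of all tested genes showed. The opposite separation, which 10.1% of genes showed, was seen in 0 members. The 15 were all 5 GTPase genes, 7 of the 8 antigen processing and presentation genes (all but Psmb10), Ifih1, Stat2 and Xaf1. No single member passed: in limma at an adjusted p under 0.05, 0 of 31 members and 0.0% of all tested genes did, and 7 members (22.6%) had an unadjusted p under 0.05, against 14.6% of all genes.

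With knockout banded 1 left out, 3 members passed limma in that comparison (Igtp, Iigp1 and Irgm1), all lower in knockout, against 2.89% of genes passing lower. The 15 genes named above stayed wholly below the wild-type banded arrays, as they must, since leaving out an array cannot undo a separation. No further member joined them, while the share of all genes rose from 8.95% to 21.3% at this smaller number of arrays. At an unadjusted p under 0.05 there were then 4 members (12.9%), a share below the 21.7% of all genes, and the median was -0.17, against -0.004 over all genes, with 10 members above 0 and 21 below. In the same fit 5 members lay wholly above (Ifit2, Irf8, Oasl2, Usp18 and Psmb10), against 20.9% of genes. In bulk tissue, fewer cells of a type and less RNA per cell cannot be told apart.

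**Figure D1:**
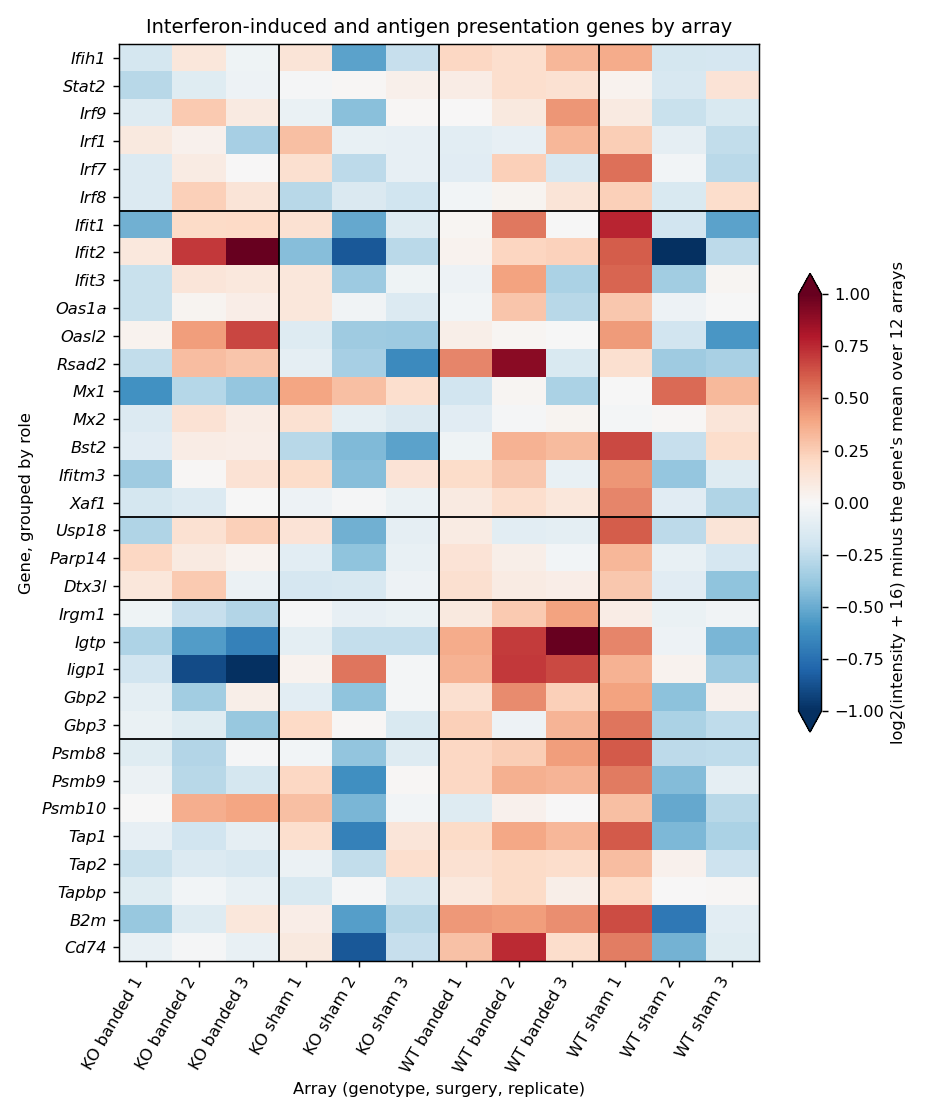
Deviation of each of the 33 measured genes from its own mean over the 12 arrays, as log2(intensity + 16), with arrays in columns and genes in rows grouped by role (top to bottom: sensor and transcription factors, antiviral effectors, ubiquitin-like and ADP-ribose modifiers, GTPases, antigen processing and presentation). The GTPase and antigen presentation rows are mostly above their means in the wild-type banded columns and below in the knockout banded columns, and wild-type sham 1 is above nearly throughout.

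**Figure D2:**
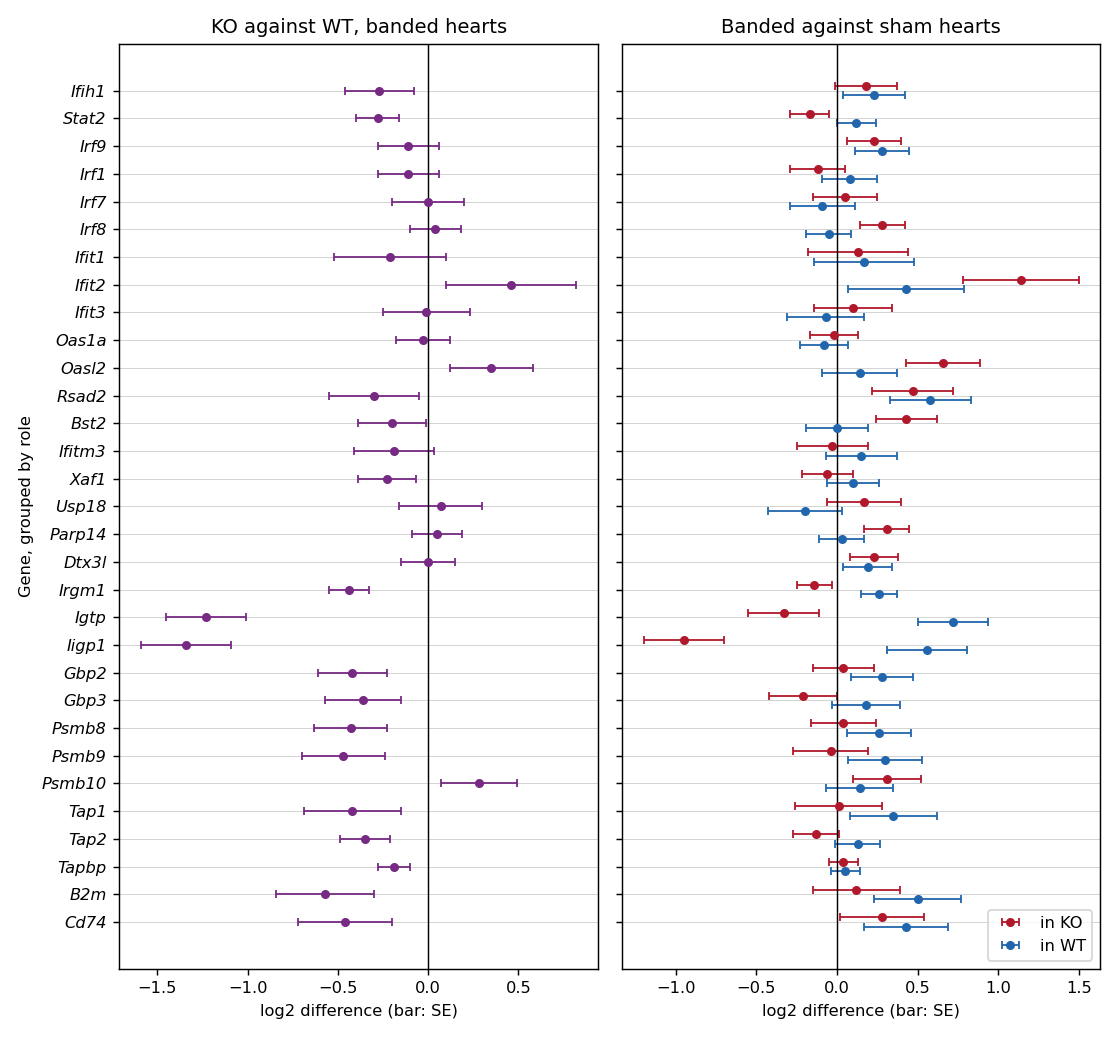
Log2 differences with their standard errors for the 31 tested genes in limma (horizontal axis), for knockout against wild type in banded hearts (left) and for banded against sham hearts in each genotype (right). Iigp1 and Igtp lie farthest from 0 on the left (-1.34 and -1.23), and Iigp1 lies on opposite sides of 0 in the 2 genotypes on the right.

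Some of the interferon-inducible GTPases act on the membranes of vacuoles that hold pathogens, and others on host membranes. Iigp1, which helps to break such vacuoles open, had an intensity of 975, 592 and 472 in knockout banded hearts, 1144, 1618 and 1098 in knockout sham hearts, 1423, 1827 and 1765 in wild-type banded hearts, and 1421, 1144 and 869 in wild-type sham hearts. Every knockout banded array was below every knockout sham and every wild-type banded array, and only the wild-type sham range reached down to it, with 869 below the 975 of knockout banded 1. The log2 difference was -1.34 (SE 0.25, limma adjusted p = 0.0913) for knockout against wild type in banded hearts, 0.396-fold, and -0.95 (SE 0.25, adjusted p = 0.0523) for banded against sham in knockout hearts. In wild-type hearts banding went the other way, by 0.56 (SE 0.25, adjusted p = 0.921), with the lowest banded array at 1423 and the highest sham array at 1421. The knockout banding difference minus the wild-type one was -1.51 (SE 0.35, adjusted p = 0.402).

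Without knockout banded 1, Iigp1 passed in 4 comparisons: it was lower in knockout than in wild type in banded hearts (-1.62, adjusted p = 0.00175), lower after banding in knockout (-1.24, adjusted p = 0.00295), lower in knockout averaged over surgery (-0.73, adjusted p = 0.0363) and below 0 in the difference of the banding responses (-1.80, adjusted p = 0.0109). A dimmer probe set of Iigp1 gave -1.0 for knockout against wild type in banded hearts and -0.84 for the difference of the banding responses.

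Igtp, an immunity-related GTPase that regulates the others on host membranes, had 258, 214 and 196 in knockout banded hearts, 301, 272 and 272 in knockout sham hearts, 423, 535 and 697 in wild-type banded hearts, and 459, 312 and 230 in wild-type sham hearts. The 3 knockout banded arrays were below all arrays of the other groups except wild-type sham 3. The log2 difference of knockout against wild type was -1.23 (SE 0.22, adjusted p = 0.0913) in banded hearts, 0.426-fold, and -0.18 (SE 0.22, adjusted p = 0.981) in sham hearts. After banding it differed by -0.33 (SE 0.22, adjusted p = 0.419) in knockout and by 0.72 (SE 0.22, adjusted p = 0.918) in wild type, where the groups overlapped, and these 2 differences differed by -1.05 (SE 0.31, adjusted p = 0.442). Without knockout banded 1 it passed for knockout against wild type in banded hearts (-1.34, adjusted p = 0.00819) and averaged over surgery (-0.76, adjusted p = 0.0458).

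Irgm1, a further regulator of this family, spanned a smaller range. It had 168, 145 and 139 in knockout banded hearts, 172, 163 and 165 in knockout sham hearts, 187, 211 and 234 in wild-type banded hearts, and 184, 165 and 169 in wild-type sham hearts. The wild-type banded arrays were the 3 highest of the 12. The log2 difference of knockout against wild type in banded hearts was -0.44 (SE 0.11, adjusted p = 0.138), and -0.52 (adjusted p = 0.025) without knockout banded 1. It did not pass when wild-type banded 3, the highest array for Irgm1, was left out as well. The guanylate-binding proteins, which gather on the vacuole once it is marked, showed the same order in banded hearts: Gbp2 averaged 128 ± 20.3 in knockout and 176 ± 22.3 in wild type, and Gbp3 averaged 82.6 ± 10.9 in knockout and 111 ± 17.4 in wild type (SD, n = 3 each). Neither passed, with log2 differences of -0.42 (SE 0.19, adjusted p = 0.341) for Gbp2 and -0.36 (SE 0.21, adjusted p = 0.455) for Gbp3. A dimmer probe set of Gbp2 gave 0.01, so its probe sets disagreed. Iigp1, the guanylate-binding protein genes, Ifit3 and Oas1a have close relatives in the mouse genome, and binding of related transcripts to these probes was not tested.

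**Figure D3:**
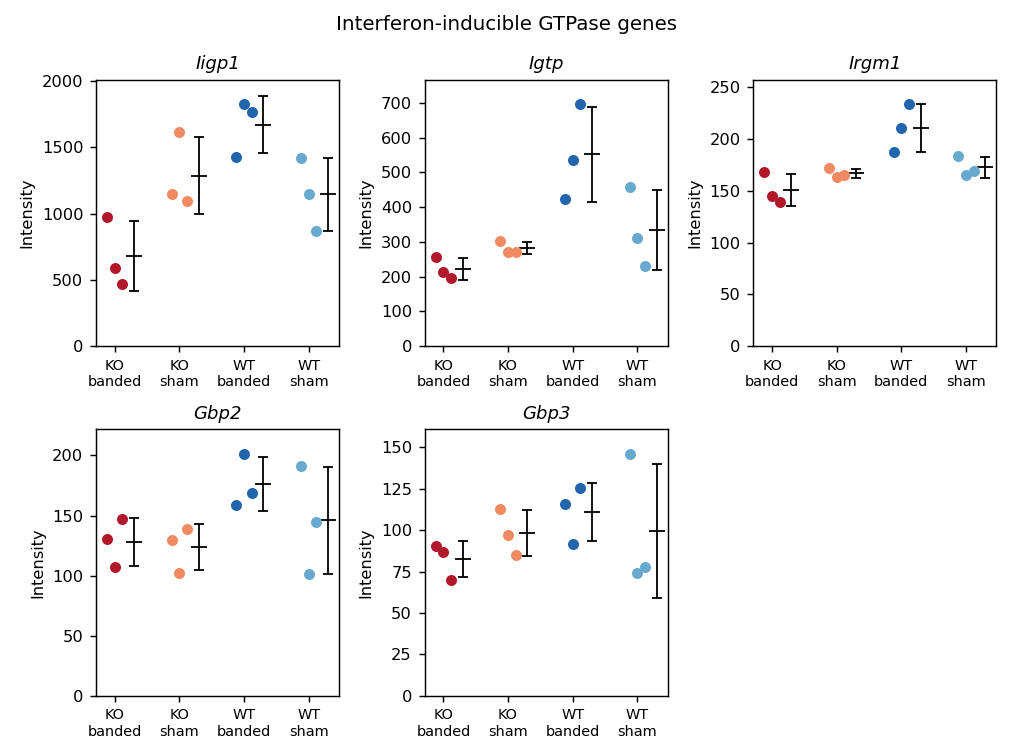
Intensity (linear scale, vertical axis) of the 5 GTPase genes in every array, with points for the 3 arrays of each group in replicate order and a bar for the mean and SD. In each panel the 3 knockout banded points lie below the 3 wild-type banded points.

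Antigen presentation by MHC class I begins with the immunoproteasome, which cuts proteins into peptides. The TAP transporter carries these into the endoplasmic reticulum, tapasin holds it to the empty class I molecule, and beta-2-microglobulin is the light chain. B2m, which encodes that chain, had 2642, 3132 and 3720 in knockout banded hearts, 3591, 2341 and 2825 in knockout sham hearts, 4643, 4597 and 4748 in wild-type banded hearts, and 5415, 2080 and 3191 in wild-type sham hearts. The wild-type banded arrays were close to each other and above all others but wild-type sham 1, while the wild-type sham arrays held both the highest and the lowest value of the 12. For knockout against wild type in banded hearts the log2 difference was -0.57 (SE 0.27, adjusted p = 0.352), and for banded against sham it was 0.12 (SE 0.27, adjusted p = 0.838) in knockout and 0.50 (SE 0.27, adjusted p = 0.921) in wild type. The other B2m probe set gave -0.43 for the first of these.

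The immunoproteasome subunit gene Psmb8 had 192, 168 and 208 in knockout banded hearts, 206, 156 and 191 in knockout sham hearts, 245, 252 and 287 in wild-type banded hearts, and 331, 173 and 174 in wild-type sham hearts. The knockout and wild-type banded arrays did not overlap, and wild-type sham 1 was again the highest array. The log2 difference of knockout against wild type in banded hearts was -0.43 (SE 0.20, adjusted p = 0.351). Psmb9, its partner subunit, averaged 109 ± 9.60 in knockout banded and 157 ± 9.55 in wild-type banded hearts, a log2 difference of -0.47 (SE 0.23, adjusted p = 0.374). The third inducible subunit, Psmb10, was the exception in this group, with 588 ± 88.2 in knockout banded and 479 ± 30.0 in wild-type banded hearts (SD, n = 3 each), ranges that overlapped and a log2 difference of 0.28 (SE 0.21, adjusted p = 0.576).

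Tap1, a subunit of the peptide transporter, had 92.4, 84.7 and 92.0 in knockout banded hearts, 113, 55.9 and 109 in knockout sham hearts, 115, 134 and 129 in wild-type banded hearts, and 160, 68.0 and 76.4 in wild-type sham hearts. Both banded groups were tight and apart, and both sham groups were wide, overlapping each other and the banded group of their genotype. The log2 difference of knockout against wild type in banded hearts was -0.42 (SE 0.27, adjusted p = 0.492). For Tap2, the other subunit, the same difference was -0.35 (SE 0.14, adjusted p = 0.265), with 164 ± 5.57 in knockout and 213 ± 3.04 in wild type (SD, n = 3 each). Tap1 and Psmb9 lie head to head on chromosome 17, and their promoter windows share 225 of 250 bases.

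Tapbp, which encodes tapasin, had 703, 748 and 724 in knockout banded hearts, 685, 757 and 676 in knockout sham hearts, 822, 874 and 798 in wild-type banded hearts, and 880, 768 and 771 in wild-type sham hearts. It was the only antigen presentation gene of the 8 whose knockout arrays were all below the wild-type arrays of the same surgery in both surgeries. The log2 difference of knockout against wild type was -0.19 (SE 0.09) in each, with adjusted p = 0.341 in banded and 0.93 in sham hearts. Cd74, the invariant chain that guides MHC class II, had 1127, 1177 and 1125 in knockout banded hearts, 1268, 650 and 1010 in knockout sham hearts, 1459, 1996 and 1341 in wild-type banded hearts, and 1697, 848 and 1089 in wild-type sham hearts. The banded groups did not overlap, and the sham groups did, with a log2 difference of knockout against wild type of -0.46 (SE 0.26, adjusted p = 0.437) in banded and -0.30 (SE 0.26, adjusted p = 0.967) in sham hearts.

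**Figure D4:**
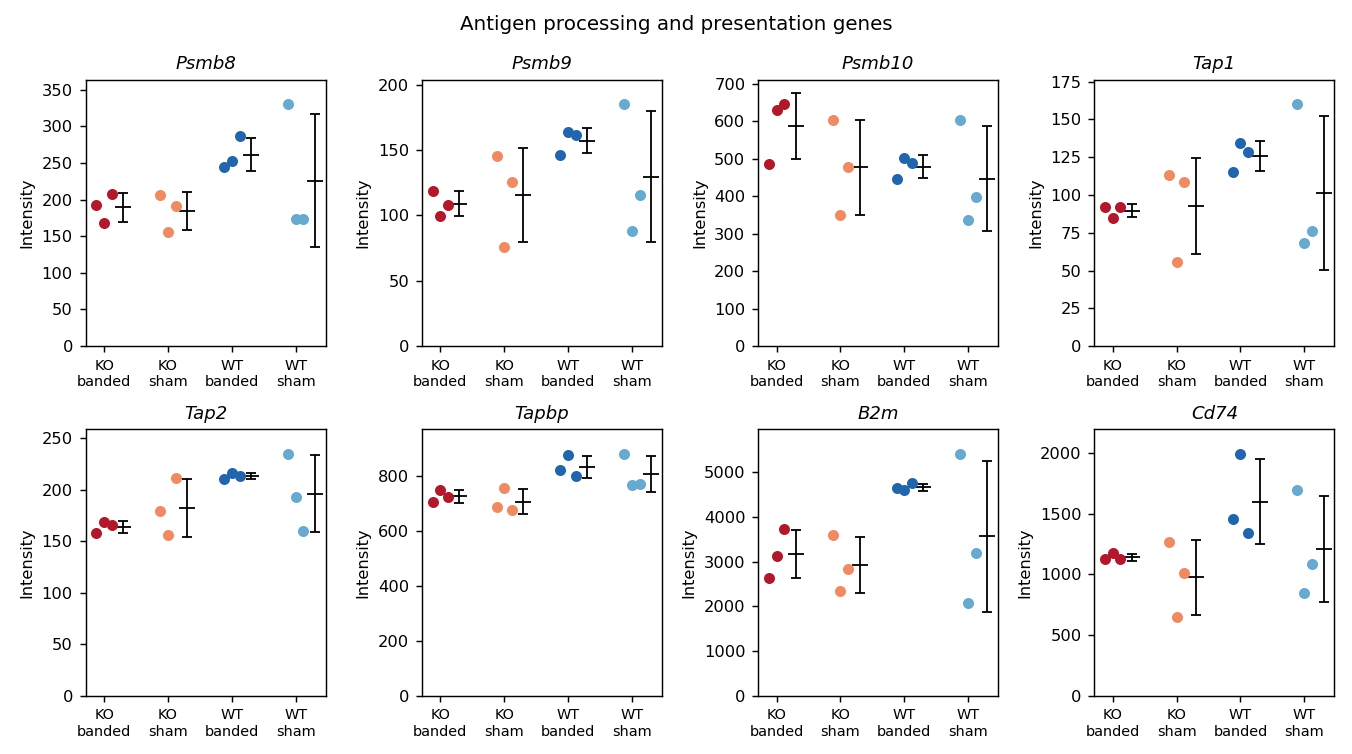
Intensity (linear scale, vertical axis) of the 8 antigen processing and presentation genes in every array, with points for the 3 arrays of each group in replicate order and a bar for the mean and SD. In 7 panels, all but that of Psmb10, the knockout banded points lie below the wild-type banded points, and in the sham groups the spread is wide.

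Of the 9 tested antiviral effector genes, 1, Xaf1, lay wholly lower in knockout banded than in wild-type banded hearts (11.1%, near the 8.95% of all genes), and 7 had log2 differences below 0. Ifit2, which encodes a protein that binds foreign RNA, had 93.1, 150 and 195 in knockout banded hearts, 59.6, 40.5 and 68.1 in knockout sham hearts, 88.0, 102 and 104 in wild-type banded hearts, and 139, 29.9 and 68.9 in wild-type sham hearts. All knockout banded arrays were above all knockout sham arrays, while the wild-type sham arrays spanned the wild-type banded ones. Banded against sham, the log2 difference was 1.14 (SE 0.36, adjusted p = 0.0913) in knockout, 2.20-fold, 0.43 (SE 0.36, adjusted p = 0.982) in wild type and 0.78 (SE 0.25, adjusted p = 0.131) averaged over genotypes. It passed without knockout banded 1, both in knockout (1.39, adjusted p = 0.0307) and averaged (0.91, adjusted p = 0.0425). It also passed in both without wild-type sham 1 (adjusted p = 0.0446 and 0.0406) and in knockout without wild-type sham 2 (adjusted p = 0.0455). No wild-type array enters the knockout difference, which stayed at 1.14 in these fits while its SE fell from 0.36 to 0.27. All groups share 1 estimate of the spread, so these passes in knockout add no evidence on banding there. Wild-type sham 1 was the highest wild-type sham array for Ifit2, so leaving it out raises the averaged difference by construction, from 0.78 to 1.0. That averaged pass is not read as support either.

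Oasl2, an oligoadenylate synthetase-like gene, had 79.2, 108 and 132 in knockout banded hearts, 68.8, 56.6 and 56.2 in knockout sham hearts, 80.8, 77.9 and 76.5 in wild-type banded hearts, and 109, 65.4 and 46.0 in wild-type sham hearts. Its knockout banded arrays were all above its knockout sham arrays, with a log2 difference of 0.66 (SE 0.23, adjusted p = 0.121), and 0.83 (adjusted p = 0.0408) without knockout banded 1. In wild type the groups overlapped and the difference was 0.14 (SE 0.23, adjusted p = 0.987). Neither for Ifit2 nor for Oasl2 did the difference between the banding responses pass, at 0.71 (SE 0.50, adjusted p = 0.687) and 0.52 (SE 0.32, adjusted p = 0.641).

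Rsad2 encodes viperin, which makes a chain-terminating nucleotide. It had 228, 340 and 334 in knockout banded hearts, 255, 213 and 170 in knockout sham hearts, 388, 522 and 243 in wild-type banded hearts, and 306, 209 and 214 in wild-type sham hearts. The banded means were higher in both genotypes, but 1 array in each banded group lay within its sham range. Banded against sham, the log2 difference was 0.47 (SE 0.25, adjusted p = 0.309) in knockout, 0.58 (SE 0.25, adjusted p = 0.921) in wild type and 0.52 (SE 0.18, adjusted p = 0.146) averaged. The average passed in limma without both knockout banded 1 and wild-type banded 3 (0.76, adjusted p = 0.0079), where 8.5% of genes did. These arrays were the lowest of their groups for Rsad2. The 2 other probe sets of Rsad2 gave averages of 0.56 and 0.59.

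Bst2, which encodes tetherin, a protein that holds budding viruses at the membrane, had 125, 144 and 144 in knockout banded hearts, 110, 96.2 and 89.4 in knockout sham hearts, 132, 178 and 174 in wild-type banded hearts, and 226, 114 and 156 in wild-type sham hearts. Its knockout sham arrays were the 3 lowest of the 12. The log2 difference of knockout against wild type was -0.62 (SE 0.19, adjusted p = 0.93) in sham and -0.20 (SE 0.19, adjusted p = 0.686) in banded hearts.

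Ifit1, the founding member of the Ifit family, had 54.5, 96.0 and 97.1 in knockout banded hearts, 93.2, 53.0 and 74.1 in knockout sham hearts, 83.6, 126 and 82.2 in wild-type banded hearts, and 151, 70.3 and 52.0 in wild-type sham hearts. All 4 groups overlapped, and banded against sham differed by 0.13 (SE 0.31, adjusted p = 0.851) in knockout and 0.17 (SE 0.31, adjusted p = 0.99) in wild type. Of the remaining antiviral genes, Ifit3, Oas1a and Ifitm3 had log2 differences between -0.19 and 0.15 in these 2 comparisons and in knockout against wild type within each surgery, and Xaf1 was lower in every knockout banded array than in every wild-type banded one (-0.23, SE 0.16, adjusted p = 0.549), though a dimmer Xaf1 probe set gave 0.16. Below the filter, Mx1 lay between 4.60 and 30.4 and Mx2 between 4.07 and 8.71 over the 12 arrays, at or below the pseudocount of 16 for most arrays.

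**Figure D5:**
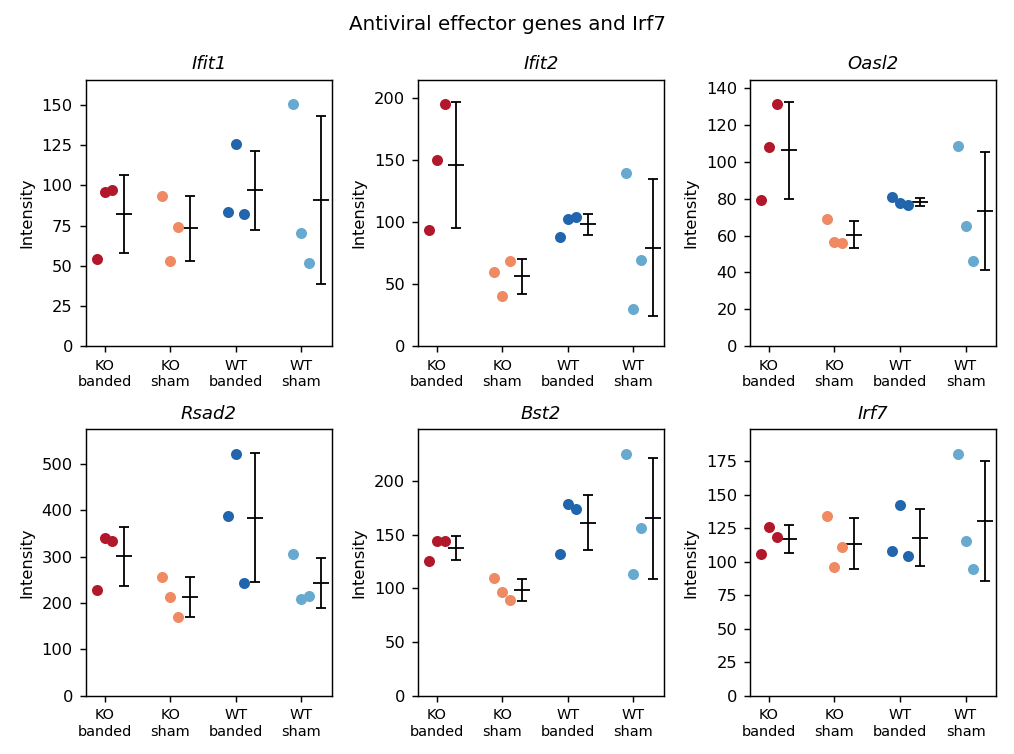
Intensity (linear scale, vertical axis) of 5 antiviral effector genes and Irf7 in every array, with points for the 3 arrays of each group in replicate order and a bar for the mean and SD. The knockout banded points lie above the knockout sham points for Ifit2, Oasl2 and Bst2, and the groups overlap for Ifit1, Rsad2 and Irf7.

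Among the transcription factors, Irf7, the amplifier of type I interferon production, had 106, 126 and 119 in knockout banded hearts, 134, 95.9 and 111 in knockout sham hearts, 108, 142 and 104 in wild-type banded hearts, and 181, 115 and 95.0 in wild-type sham hearts. The 4 groups overlapped, and its log2 differences were 0.05 (SE 0.20) for banding in knockout and -0.09 (SE 0.20) for banding in wild type. Irf8, a factor of myeloid cells, had 76.0, 104 and 94.9 in knockout banded hearts, 67.7, 75.5 and 72.5 in knockout sham hearts, 83.3, 87.1 and 94.8 in wild-type banded hearts, and 104, 75.2 and 98.7 in wild-type sham hearts. Its knockout sham arrays were low as a group, with a log2 difference of -0.29 (SE 0.14, adjusted p = 0.93) for knockout against wild type in sham hearts and 0.28 (SE 0.14, adjusted p = 0.279) for banding in knockout. Stat2, of the type I complex, averaged 94.7 ± 8.62 in knockout banded hearts, below the 118 ± 4.56 of wild-type banded hearts (SD, n = 3 each) with no overlap, and the log2 difference was -0.28 (SE 0.12, adjusted p = 0.291).

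Irf1 and Irf9, with Ifih1, which encodes the RNA sensor MDA5, gave log2 differences between -0.27 and 0.28 in the comparisons within a genotype or a surgery. Of the modifiers, Usp18 removes ISG15 from proteins, Parp14 adds ADP-ribose and Dtx3l is a ubiquitin ligase. Their knockout against wild-type differences in banded hearts were 0.07, 0.05 and less than 0.01, and Parp14 was higher in every knockout banded than in every knockout sham array (0.31, SE 0.14, adjusted p = 0.23). A dimmer Parp14 probe set went the other way, at -0.37.

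Across the members, aortic banding was followed by no passing change. In knockout hearts, limma passed 3.81% of all tested genes and 0 of the 31 members, and 5 members had an unadjusted p under 0.05, against 21.1% of genes. Their median log2 difference was 0.05, against -0.018 for all genes, with 20 above 0 and 11 below, where 46.9% of genes were above. This median had no settled direction: it was 0.11 without knockout banded 1, 0.16 without knockout sham 1 and -0.04 without knockout sham 2. Of the members, 5 (16.1%) lay wholly higher after banding (Ifit2, Irf8, Oasl2, Bst2 and Parp14), against 12.2% of genes, and 3 (9.68%) wholly lower (Stat2, Igtp and Iigp1), against 14.4%, so both shares were near the background. Without knockout banded 1, 3 members passed (Ifit2 and Oasl2 higher, Iigp1 lower), where 13.2% of genes did, 6.25% higher and 6.95% lower. Without wild-type sham 1, Ifit2 alone passed, where 3.43% of genes did, and without wild-type sham 2 it was again Ifit2 alone, where 3.27% did. Without wild-type sham 3, Iigp1 alone passed (adjusted p = 0.0488), where 3.8% of genes did. Wild-type sham arrays do not enter this comparison, and the differences stayed at 1.14 for Ifit2 and -0.95 for Iigp1. What changed was the estimate of the spread that all groups share.

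In wild-type hearts 0 of 31 members and 0.0% of genes passed for banding, with 4 members at an unadjusted p under 0.05, against 4.89% of genes. The median log2 difference was 0.17, against -0.022, with 26 members above 0 and 5 below, where 44.2% of genes were above. It was 0.07 without wild-type sham 2 and 0.08 without wild-type sham 3. Irgm1 and Iigp1 (6.45% of members) lay wholly higher, against 3.76% of genes, and 0 members wholly lower, against 6.17%. Averaged over genotypes, 0 members passed, where 1.6% of genes did, 4 had an unadjusted p under 0.05, against 18.2% of genes, and the median was 0.15, against -0.020. Ifit2 alone passed higher without knockout banded 1, where 4.36% of genes did, and alone passed without wild-type sham 1, where 1.5% did. Its highest wild-type sham value was in that array, so the last pass is not read as support.

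The wild-type sham values rested on 1 array. Wild-type sham 1 was the highest of the 12 arrays for 17 of the 33 measured members (51.5%) and above both other wild-type sham arrays for 30, and its median deviation from the members' means was 0.40 on the log2 scale, against -0.36 to 0.22 in the other arrays. Its macrophage markers summed to 6200, against 4340 and 4830 in the other wild-type sham arrays, and its endothelial markers to 4800, against 3980 and 3850; their part in the result was not tested. This array was singled out by the values of these same members, so leaving it out raises most of their banding differences by construction. The shares over all genes were not picked that way, so no conclusion is drawn from the counts that follow. With wild-type sham 1 left out, all 31 members had a log2 difference above 0 for banding in wild type, where 48.0% of genes did. The median was then 0.37, against -0.009 over all genes. In that fit 15 members (48.4%) had an unadjusted p under 0.05, against 6.53% of genes, and 0 passed, where 0.0275% of genes did. In the same comparison 23 members (74.2%) then lay wholly above the 2 remaining sham arrays, against 10.6% of genes. The members above 0 numbered 21 without wild-type sham 2 and 19 without wild-type sham 3.

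Between the genotypes in sham hearts, 0 of 31 members and 0.0% of genes passed, 1 member, Bst2, had an unadjusted p under 0.05, against 5.22% of genes, and Bst2 and Tapbp (6.45%) lay wholly lower in knockout, against 5.32%, and 0 wholly higher, against 5.5%. The median log2 difference was -0.17, with 26 members below 0, where 49.3% of genes were. It turned to 0.07, with 22 members above 0, without wild-type sham 1, where 17 of the 31 changed sign. Averaged over surgery, 0 members and 0.0% of genes passed for knockout against wild type, 8 members had an unadjusted p under 0.05, against 10.6% of genes, and 28 were below 0, where 48.9% of genes were. Without knockout banded 1, Igtp and Iigp1 passed lower, where 0.559% of genes did. Without both knockout banded 1 and wild-type banded 3, 0 members passed there (smallest adjusted p = 0.0736). The difference of the banding responses passed for 0 members and 0.0% of genes, 3 members (Iigp1, Igtp and Irgm1) had an unadjusted p under 0.05, against 9.11% of genes, and the median was -0.12, against 0.002 over all genes. That median also had no settled direction, at 0.02 without knockout banded 1 (16 members above 0 and 15 below), 0.02 without wild-type sham 2 and -0.31 without wild-type sham 1. Without knockout banded 1, Iigp1 alone passed, below 0, where 0.87% of genes did. For knockout against wild type in banded hearts, which uses no sham array, the median lay between -0.27 and -0.16 with each of the 6 banded arrays left out in turn.

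The genes that carry the signal into the cell gave no call. Of 26 interferon, receptor and signalling genes, 24 had a probe set of their own and 16 were tested, and 0 passed in any of the 7 comparisons in limma; 0 to 2 per comparison had an unadjusted p under 0.05. Mean intensities in knockout banded, knockout sham, wild-type banded and wild-type sham hearts were 139, 137, 135 and 152 for Ifnar1 and 316, 335, 309 and 326 for Ifnar2. For the gamma receptor they were 361, 302, 363 and 356 for Ifngr1 and 1030, 1140, 1100 and 1150 for Ifngr2. The interferon genes Ifnb1, Ifna1, Ifna2, Ifna4 and Ifng were all below the filter, with Ifng between 0.922 and 14.1.

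Further genes of the same pathways were read in the same way. Of 17 tested antigen presentation genes outside the list, 0 passed in any comparison, and for knockout against wild type in banded hearts 16 were below 0 and 1 above, with a median log2 difference of -0.26 and 4 (23.5%) wholly lower, against 8.95% of all genes. The classical class I heavy chain H2-K1, named after its values were seen, had 2320, 2180 and 2420 in knockout banded and 3730, 2950 and 3840 in wild-type banded hearts, with no overlap and a log2 difference of -0.59 (SE 0.28, adjusted p = 0.351). Of 26 other tested interferon-induced genes, 0 passed in any comparison, and for knockout against wild type in banded hearts 19 were below 0 and 7 above, with a median of -0.07 and 3 (11.5%) wholly lower, near the 8.95% of all genes. Over all genes 49.4% were below 0 in that comparison.

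Marker sums and RNA quality were read beside these results. In banded hearts the 12 macrophage markers, 0 of which passed, summed to 3920 to 6090 in knockout and 4680 to 6730 in wild type, and 5 were above 0 and 7 below in knockout against wild type (median -0.06). The 8 endothelial markers summed to 3860 to 4360 in knockout banded and 3960 to 4170 in wild-type banded hearts. The 6 fibroblast markers summed to 6180 to 10400 in knockout banded and 9660 to 11100 in wild-type banded hearts. Of these, 2 were above 0 and 4 below in knockout against wild type (median -0.19), and 1, Dcn, was wholly lower, with 3900 to 5190 in knockout banded and 5780 to 7550 in wild-type banded hearts (-0.48, SE 0.16, limma adjusted p = 0.216). Neutrophil markers summed to 120 to 323 in knockout banded and 143 to 2060 in wild-type banded hearts, and 6 of 6 cardiomyocyte markers were wholly lower in knockout banded than in wild-type banded hearts, with sums of 48600 to 49700 against 56000 to 70200. On the log2 scale, the Actb 3′ probe set minus its 5′ probe set was -0.22 to -0.17 in knockout banded hearts and 0.08 to 0.28 in wild-type banded hearts. What part cardiomyocyte and fibroblast content and RNA quality had in the lower GTPase and antigen presentation values was not tested. T and natural killer cell markers, of which 1 of 9 passed the filter, and B cell markers summed to 192 to 273 and 218 to 319 over the 12 arrays.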

How the data were processed

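Total RNA from mouse hearts was extracted with Trizol, labelled with biotin and hybridised to Affymetrix arrays, per the labels' protocols. The authors deposited 1 linear intensity per probe set and array. No label names the software or scaling. After trimming 2% of values at each end, every array had a mean of 150, so no further scaling was applied. Of 45101 probe sets, 34945 were annotated to 1 gene (64 controls left out), and each of the 18193 genes was read from its probe set of highest mean.

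Intensities were transformed as log2(value + 16), and the upper 60% of genes by mean, 10916, were tested. The 12 arrays entered 1 fit of 4 group means in limma 3.58.1 under R 4.3.3 (eBayes, trended variance, 8 residual degrees of freedom), with 7 comparisons. Tests were two-sided. Passing means an adjusted p under 0.05 by the Benjamini-Hochberg method over all tested genes. Log2 differences are on the log2(value + 16) scale, which understates those of low genes. The procedure was tested on simulated data. The labels call the arrays biological replicates.

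The members, gene lists and tests were chosen with earlier results of these data known. Genes described array by array are the 3 with the smallest p in each comparison and Ifit1, Irf7, Igtp, Psmb8, Tap1, B2m and Cd74; Isg15, also on that list, has no probe set of its own. Deviations of same-numbered arrays of different groups had correlations of -0.281 to 0.233. Different-numbered arrays were not compared, so these values cannot show whether the numbers mark pairs. The numbers were not taken as pairs, and a fit with the replicate number as a block is given below. Other settings tried were the filter, pseudocount, scaling, variance trend, array weights, choice of probe set, fits of the groups compared, a replicate block, and leaving out arrays.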

Additional observations from a re-analysis of the deposited data

Results flagged for a closer look

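Iigp1 was marked because its arrays moved in opposite directions with banding in the 2 genotypes. All 3 knockout banded arrays (472 to 975) were below all 3 knockout sham arrays (1098 to 1618), and all 3 wild-type banded arrays (1423 to 1827) were above all 3 wild-type sham arrays (869 to 1421), the last by a gap of 1423 against 1421. The difference of the banding changes was -1.51 on the log2 scale and did not pass in limma (adjusted p = 0.402). It passed without knockout banded 1 (adjusted p = 0.0109). The rise in wild type was 0.56 in the probe set used and only 0.17 in a dimmer one, which gave -0.66 in knockout. The same separation, lower in knockout and higher in wild type, was found in 27 of 10916 genes (0.247%).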

How the results depend on the processing

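Of 344 recomputed counts and medians over the members, 326 stayed within limits set for them. A median stayed if it moved by less than 0.21, the SD of the members' mean log2 value within groups. That limit is about as wide as the largest of the medians reported above, so a median could change sign and still stay. Every reported count was 0, so a count stayed only if it was again 0. No conclusion on stability is drawn from this tally. For the 3 genes of smallest p in each comparison, 462 of 490 recomputed log2 differences kept their direction and side of the threshold, and 28 kept their direction and passed. Other members did change direction, most of all in knockout against wild type in sham hearts, where 17 of 31 did so without wild-type sham 1, among them B2m (0.16), Tap1 (0.25), Psmb8 (0.07), Igtp (0.06) and Ifit2 (0.19). The counts of passing members moved as follows, against 0 in each comparison as reported. For banding in knockout the count was 1 of 19 with the upper 40% of genes (6.17% of all genes passed), 3 with array quality weights (17.1%), 2 without both knockout banded 1 and wild-type banded 3 (12.4%), and 0 to 3 with 1 array left out. For banding averaged over genotypes it was 1 with weights (Ifit2, 7.04%), 1 without both arrays (Rsad2, 8.5%) and 0 to 1 with 1 array left out. For knockout against wild type in banded hearts it was 3 with weights (5.32%), 2 without both arrays (Igtp and Iigp1, 3.24%) and 0 to 3 with 1 array left out. With 1 array left out it was 0 to 2 for knockout against wild type averaged over surgery, where leaving out both arrays gave 0, and 0 to 1 for the difference of the banding responses, where leaving out both arrays gave 1 (0.879%). The highest of each of these ranges was reached without knockout banded 1; for the averaged banding count also without wild-type sham 1. The cause was not tested. With 1 array left out, the median ran from -0.04 to 0.16 for banding in knockout, 0.07 to 0.37 for banding in wild type, -0.31 to 0.02 for the difference of the banding responses, -0.27 to -0.16 for knockout against wild type in banded hearts and -0.23 to 0.07 in sham hearts. With the replicate number as a block, 0 members passed in all 7 comparisons, and the genes called for banding in knockout numbered 237, against 416, and for averaged banding 60, against 175. Scaling moved the median of all genes by at most 0.069. With no filter on low values, 212 genes passed for banding in knockout and 77 averaged. The signal of Mx1 and Mx2 is too low to read, and 3 arrays a group limit all counts.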
